A study of Mus musculus with 4 samples.

Results

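Ilvbl encodes a thiamine-dependent lyase of the endoplasmic reticulum, and its transcript was examined in mouse trigeminal ganglia together with 4 genes that act beside it. These were Hacl1 and Phyh, which encode enzymes of fatty acid alpha-oxidation in peroxisomes, and Slc19a2 and Slc19a3, which encode thiamine transporters. The 5 genes were taken by symbol from the deposited table of 56035 gene rows, each symbol matched 1 row, and all 5 were among the 15390 genes that passed the filter on low values, an average of 1 TPM or more. TPM is a level per unit of transcript length, brought to an equal total for each library. Ilvbl was chosen by its measured TPM, which was higher in both mutant libraries, so its difference between the genotypes is described here without a test. The other 4 genes were added for their roles.

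Both groups were male C57BL/6 mice aged 8 weeks, and RNA was taken from the trigeminal ganglion, the sensory ganglion of the face. The K823R group (2 libraries) carried a knock-in allele of Trpv1, called transgenic in the genotype label, in which a lysine of the TRPV1 channel is replaced by arginine. The WT group (2 libraries) was littermate controls without the allele. The protocol speaks of 2 pairs of ganglia without saying how animals map to libraries, so the p-values speak of the spread among these libraries alone, and that may be technical. In the whole ganglion, fewer cells of a type and less RNA per cell cannot be told apart.

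Alpha-oxidation shortens a fatty acid by a single carbon. It is needed for phytanic acid, a branched fatty acid from the diet whose methyl group blocks ordinary beta-oxidation, and loss of human PHYH causes Refsum disease, which includes a neuropathy of peripheral nerves. Phytanoyl-CoA is hydroxylated by PHYH and then cleaved by HACL1, which uses thiamine pyrophosphate, and the aldehyde formed is oxidised further. In human cells ILVBL, also called HACL2, cleaves 2-hydroxy fatty acyl-CoA in the endoplasmic reticulum with the same cofactor. Thiamine, vitamin B1, enters cells through SLC19A2 and SLC19A3 and is converted there to thiamine pyrophosphate.

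Ilvbl stood at 56.0 and 50.3 TPM in K823R, against 28.3 and 28.0 TPM in WT. Both K823R libraries lay well above both WT libraries, and the WT libraries were almost equal. Means were 53.1 ± 4.02 TPM in K823R and 28.2 ± 0.156 TPM in WT (SD, n = 2 each). Each K823R library held 1.78 to 2.00 times the level of each WT library. On the log2(TPM + 1) scale used for all differences below, K823R minus WT, Ilvbl differed by 0.89 (standard error, SE, 0.09). Among the 9100 genes that averaged 10 TPM or more, 36 genes, Ilvbl included, had non-overlapping groups and a ratio of means at least as high as that of Ilvbl. On the lower side 18 genes had non-overlapping groups and a ratio at least as far from equality.

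**Figure D1:**
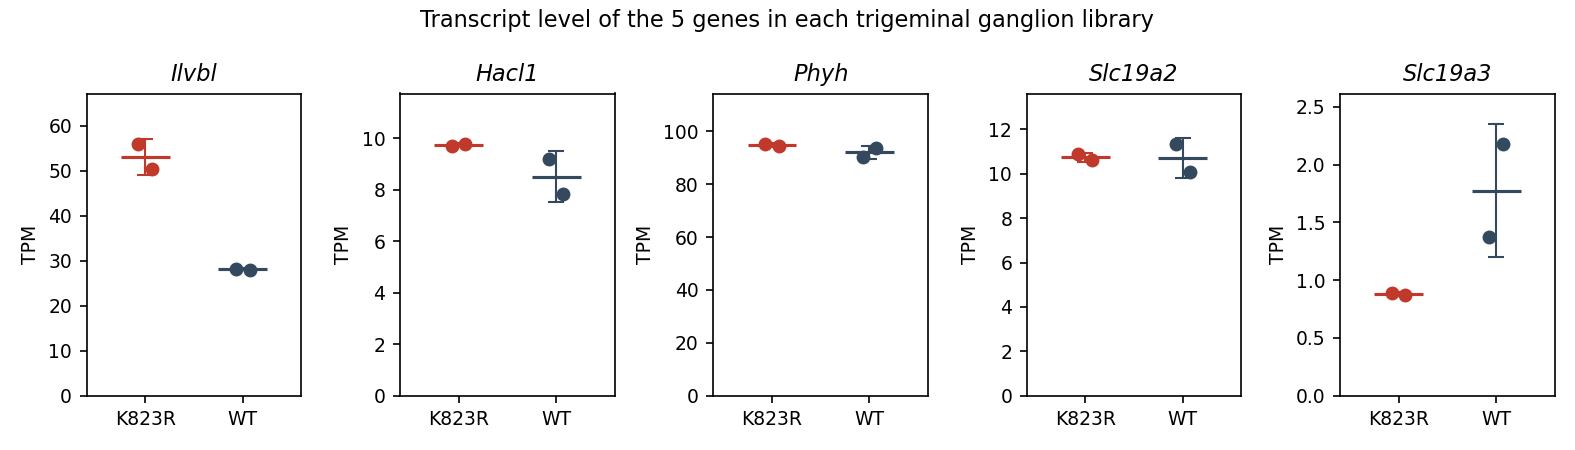
Level of each of the 5 genes in TPM on a linear axis that starts at 0, with a panel per gene. Points are libraries, wide lines are means and error bars are SD (n = 2 each, K823R left, WT right). The K823R and WT points of Ilvbl are far apart (56.0 and 50.3 against 28.3 and 28.0 TPM), while those of Phyh and Slc19a2 lie close together.

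In the GRCm38 annotation Ilvbl (ENSMUSG00000032763) occupies bases 78574346 to 78584502 of chromosome 10, plus strand. The deposited table gives it a single length of 2329 bases and a single TPM per library, which adds up its transcripts. RefSeq places transcript starts at 78574500, at 78574513 and at 78574991. In GENCODE the principal transcript from the first start has 16 exons, and that from 78574994, near the last, has 15. The gene-level TPM does not say from which start the additional transcripts in K823R came. Both stretches are therefore shown, from 250 bases before the start to 30 bases within the transcript (RefSeq, build GRCm38.p6, plus strand). They are chr10:78574250-78574529 and chr10:78574741-78575020. Capitals mark the letters CCAAT, GTCACGTGAC and TGACGTCA, motifs picked after the sequences had been read.
Ilvbl first start: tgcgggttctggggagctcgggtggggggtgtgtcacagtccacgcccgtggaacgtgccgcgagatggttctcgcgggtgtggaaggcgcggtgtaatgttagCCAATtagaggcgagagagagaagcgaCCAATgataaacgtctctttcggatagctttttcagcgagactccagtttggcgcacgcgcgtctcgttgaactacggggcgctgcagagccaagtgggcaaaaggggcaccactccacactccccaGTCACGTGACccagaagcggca
Ilvbl last start: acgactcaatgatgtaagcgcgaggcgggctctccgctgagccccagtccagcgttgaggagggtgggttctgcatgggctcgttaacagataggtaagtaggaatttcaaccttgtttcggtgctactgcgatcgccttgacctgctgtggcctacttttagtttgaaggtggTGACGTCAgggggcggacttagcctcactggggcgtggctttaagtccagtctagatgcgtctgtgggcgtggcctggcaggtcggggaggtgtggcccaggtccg
The window of the first start holds CCAAT at 146 and 119 bases before the start, and GTCACGTGAC, which contains the E-box CACGTG, from base 9 after it. The window of the last start holds TGACGTCA, the letters known as the cyclic AMP response element, 76 bases before the start. Among 32851 promoter windows of that length, searched on both strands, 0.317% held GTCACGTGAC, 6.79% held CACGTG, 1.74% held TGACGTCA and 36.1% held CCAAT. All 5 genes had RefSeq windows. Of the other 4, Hacl1 and Slc19a2 held CCAAT on either strand, and Phyh and Slc19a3 held none of these letters. These matches describe the sequence only.

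The nearest genes on chromosome 10 had levels that differed little between the genotypes. Of 33 annotated genes within 250 kb of Ilvbl, 7 passed the filter, and none of the 7 was past the threshold of an adjusted p below 0.05 in limma, the linear-model test fitted over all 15390 genes. Over all genes 0.0065% were past it with K823R higher and 0.0% with K823R lower. Syde1, which encodes a GTPase-activating protein, runs towards Ilvbl on the minus strand and ends at the next base, 78584503. It stood at 13.3 and 12.4 TPM in K823R, against 13.2 and 11.97 TPM in WT (limma adjusted p = 0.989). The pyridoxal kinase gene Pdxk had means of 14.8 TPM in K823R and 13.9 TPM in WT, and the acyltransferase gene Agpat3 of 96.8 TPM in K823R and 87.6 TPM in WT. The protease inhibitor gene Cstb averaged 162 TPM in K823R and 177 TPM in WT, the ribosome biogenesis gene Rrp1 229.8 TPM in K823R and 218 TPM in WT, the glutamate transporter gene Slc1a6 2.64 TPM in K823R and 2.55 TPM in WT, and the pseudogene Gm10146 156 TPM in K823R and 147 TPM in WT. Log2 differences of these 7 genes ran from -0.13 to 0.14.

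Over a wider window of 5 Mb to each side, chosen after the values were seen, 192 genes passed the filter besides Ilvbl. Their median log2 difference was 0.057, against 0.026 over all genes tested. K823R lay wholly above WT for 51 of them and wholly below for 20. Over all genes tested these shares were 19.4% above and 14.6% below. With a ratio of means of at least 1.5 as well, 10 of the 192 lay above and 1 below, against 3.14% and 1.82% of all genes tested. The widest difference in the window was that of the corepressor gene Tle6, at 13.7 and 11.3 TPM in K823R, against 3.74 and 4.87 TPM in WT.

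**Figure D2:**
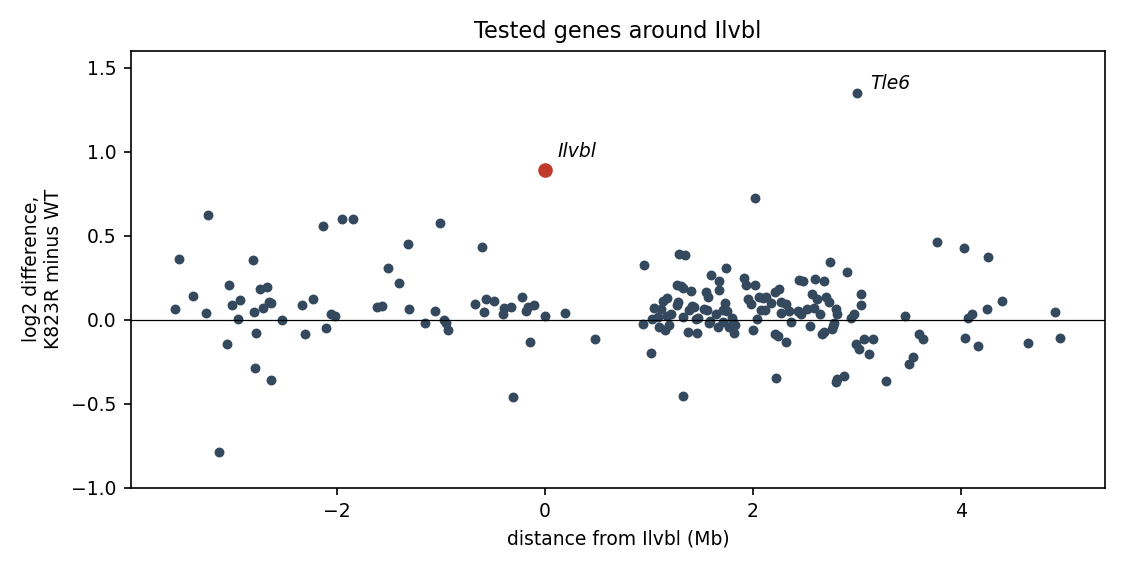
Log2 difference, K823R minus WT, of the 192 tested genes within 5 Mb of Ilvbl, plotted by distance from it in Mb, with Ilvbl in red. Ilvbl, which was chosen for its difference, stands at 0.89 above its near neighbours, and Tle6 lies higher at about 3006 kb.

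Hacl1, the peroxisomal lyase that shares its thiamine pyrophosphate domains with Ilvbl, was less abundant than Ilvbl and differed little between the genotypes. It stood at 9.72 and 9.79 TPM in K823R, against 9.21 and 7.83 TPM in WT. The K823R values exceeded both WT values, the higher of which was close to them. Hacl1 differed by 0.18 (log2, SE 0.12, 95% interval -0.14 to 0.50; limma adjusted p = 0.918). Only Hacl1 and Ilvbl carried all 3 of the N-terminal, middle and C-terminal thiamine pyrophosphate enzyme domains in the table's own domain annotation. Within a library, the TPM of Ilvbl was 5.76 and 5.14 times that of Hacl1 in K823R and 3.07 and 3.58 times in WT. Hacl1 (ENSMUSG00000021884) occupies bases 31598730 to 31641286 of chromosome 14, minus strand. The annotated gene Gm49387 overlaps it there and shares 1150 bases with it at 100% identity, which leaves the origin of such reads uncertain, although Gm49387 was listed at 0 in every library. The transcripts of Ilvbl, Phyh, Slc19a2 and Slc19a3 had no match to another gene of at least 150 bases at 95% identity.

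Phyh, the phytanoyl-CoA hydroxylase, was the most abundant of the 5 genes. It stood at 95.3 and 94.4 TPM in K823R, against 90.4 and 93.8 TPM in WT. The K823R values lay just above the WT values, with a gap smaller than the one between the WT libraries. Phyh differed by 0.042 (log2, SE 0.07, 95% interval -0.14 to 0.22; limma adjusted p = 0.955). Phyh (ENSMUSG00000026664) occupies bases 4919019 to 4938730 of chromosome 2, plus strand. Its TPM was 1.70 and 1.88 times that of Ilvbl in K823R and 3.2 and 3.35 times in WT. Its ratio to Hacl1 was 9.80 and 9.64 in K823R and 9.82 and 12.0 in WT, so K823R lay just below WT there.

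The thiamine transporters differed from each other in level. Slc19a2 stood at 10.9 and 10.6 TPM in K823R, against 11.4 and 10.1 TPM in WT, and both K823R values fell between the WT values. It differed by 0.0070 (log2, SE 0.11, 95% interval -0.28 to 0.30; limma adjusted p = 0.997), and the sign changed with single libraries left out and with rescaling. Slc19a3 was scarce, at 0.89 and 0.87 TPM in K823R, against 1.37 and 2.18 TPM in WT. Both K823R libraries lay below both WT libraries, and the WT libraries were far apart. The means were 0.88 ± 0.0141 TPM in K823R and 1.78 ± 0.573 TPM in WT (SD, n = 2 each). Slc19a3 differed by -0.55 (log2, SE 0.27, 95% interval -1.26 to 0.17; limma adjusted p = 0.918). Slc19a3 passed the filter through its WT values, since its K823R mean is under 1 TPM, and the scale understates the change of so low a gene. In TPM the K823R mean was 0.496 of the WT mean. Slc19a2 (ENSMUSG00000040918, 164249046 to 164265385, plus strand) and Slc19a3 (ENSMUSG00000038496, 83012523 to 83038448, minus strand) both lie on chromosome 1. Slc19a2 had 12.2 times the TPM of Slc19a3 in each K823R library and 8.28 and 4.62 times in the WT libraries.

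In order of TPM, Phyh was followed by Ilvbl, then by Slc19a2 and Hacl1, with Slc19a3 last, in all 4 libraries. Slc19a2 and Hacl1 were the closest neighbours, with ranges of 10.1 to 11.4 and 7.83 to 9.79 TPM, and the gap between these ranges was smaller than the gap between the WT libraries of either gene. Of the 5 genes, Ilvbl, Hacl1 and Phyh had K823R wholly above WT, and Slc19a3 had K823R wholly below. Across all genes tested that held for 19.4% and 14.6%. The gene chosen for its difference is among these 3, and the gaps of Hacl1 and Phyh were small beside that of Ilvbl. None of Hacl1, Phyh, Slc19a2 and Slc19a3 was past the threshold, and none of the 4 had an unadjusted limma p below 0.05, which 4.76% of all genes tested had. The 1 gene past the threshold in the series was not any of the 5.

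**Figure D3:**
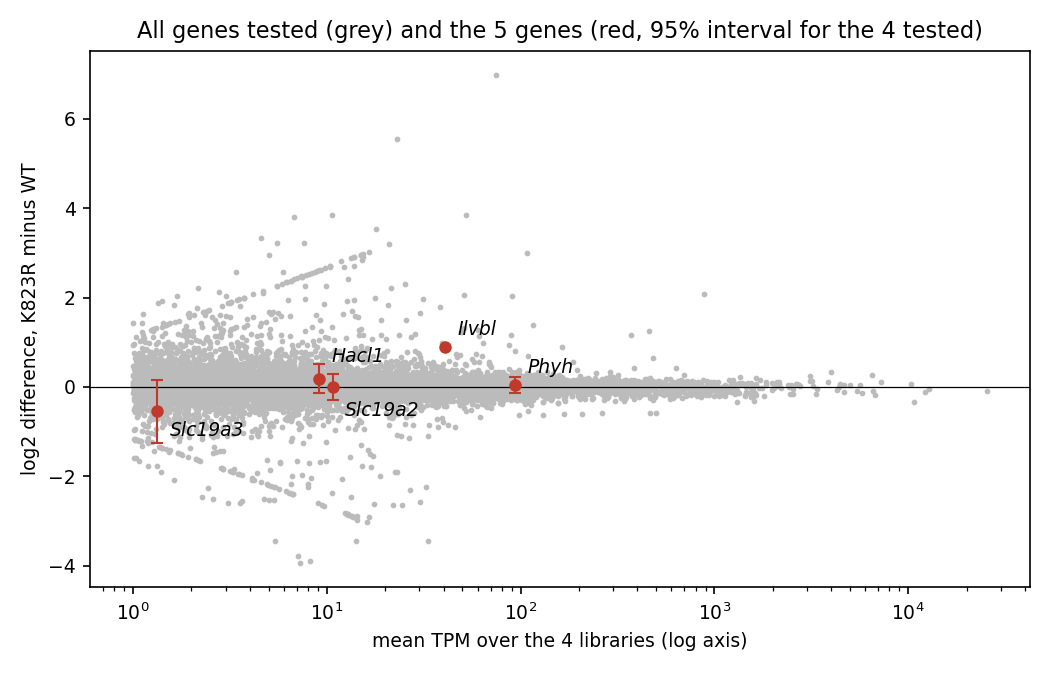
Log2 difference, K823R minus WT, of the 15390 genes tested (grey) by mean TPM over the 4 libraries on a log axis, with the 5 genes in red. Bars are 95% intervals, drawn for the 4 genes that were tested and not for Ilvbl. Ilvbl lies at 0.89, and the other 4 genes lie between -0.55 and 0.18.

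In the wider supply of thiamine pyrophosphate no gene was past the threshold. The list on transport and activation had 7 genes in the table, of which 5 passed the filter. These 5 had a log2 difference above 0, as had 57.4% of all genes tested. Their median was 0.0498, against 0.026 over all genes tested, and 0.13 without WT replicate 1 or 0.14 without WT replicate 2. For 2 of the 5 K823R lay wholly above WT, against 19.4% of all genes tested. Slc19a1, the reduced folate carrier of the same family as the thiamine transporters, stood at 27.6 and 27.3 TPM in K823R, against 24.5 and 19.7 TPM in WT (log2 difference 0.31, SE 0.13, limma adjusted p = 0.918). The thiamine triphosphatase gene Thtpa had means of 16.6 TPM in K823R and 15.98 TPM in WT. Slc44a4, a transporter of thiamine pyrophosphate, was under the filter.

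Of 11 genes for other enzymes that use thiamine pyrophosphate 7 passed the filter, and these averaged 18.1 to 289 TPM over the 4 libraries, each above Hacl1 at 9.14 TPM. Dhtkd1 and Tktl1 were under the filter, and Tktl2 and Pdha2 were listed at 0 in every library. Of the 7 tested, 6 had a positive sign and 1 a negative, with a median log2 difference of 0.027. Transketolase (Tkt), of the pentose phosphate pathway, stood at 200.6 and 205 TPM in K823R, against 193 and 176 TPM in WT (log2 difference 0.14, SE 0.08). Tkt alone on this list had non-overlapping groups, which is 14.3% of the 7, against 34.0% of all genes tested. The 2-oxoglutarate dehydrogenase gene Ogdh averaged 129 TPM in K823R and 119 TPM in WT, its relative Ogdhl 18.8 TPM in K823R and 17.4 TPM in WT, and the branched-chain ketoacid dehydrogenase gene Bckdha 58.8 TPM in K823R and 57.7 TPM in WT. Of the 14 partner subunits, kinases and phosphatases of these complexes, all tested, 7 were on each side, with a median of 0.0080. The pyruvate dehydrogenase subunit gene Dlat averaged 76.01 TPM in K823R and 67.2 TPM in WT, and the 2-oxoglutarate dehydrogenase subunit gene Dlst 133 TPM in K823R and 119 TPM in WT. Dld, the subunit these complexes share, averaged 91.3 TPM in K823R and 98.8 TPM in WT. The kinase gene Bckdk averaged 22.99 TPM in K823R and 19.1 TPM in WT.

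Genes that act with Phyh and Hacl1 had a median log2 difference of 0.11, against 0.026 over all genes tested, and none was past the threshold. The median was 0.043 without WT replicate 2 and 0.16 without WT replicate 1. Of 8 genes 7 passed the filter. Of these, 6 were on the higher side, against 57.4% of all genes tested, and 4 had both K823R libraries above both WT libraries, against 19.4%. Pex7, the receptor that imports PHYH into peroxisomes, averaged 33.4 TPM in K823R and 30.8 TPM in WT. Pex5, the receptor for most other peroxisomal enzymes, averaged 23.5 TPM in K823R and 21.6 TPM in WT. Phyhd1, a dioxygenase related to PHYH, stood at 7.32 and 5.99 TPM in K823R, against 3.82 and 5.61 TPM in WT (log2 difference 0.43, SE 0.21). Phyhip, named for binding PHYH, averaged 5.29 TPM in K823R and 4.54 TPM in WT. Aldh3a2, the aldehyde dehydrogenase of the last step, stood at 49.3 and 47.4 TPM in K823R, against 47.9 and 47.4 TPM in WT, and its groups overlapped. Aldh3a2 was added outside the naming rule for that role.

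The 4 lists further from the lyase step had medians between 0.022 and 0.048 and none of their genes past the threshold. Of 14 tested genes of peroxisomal beta-oxidation 9 were on the higher side. The racemase gene Amacr, needed for branched fatty acids after alpha-oxidation, averaged 13.2 TPM in K823R and 10.7 TPM in WT, and the thiolase gene Acaa1a 56.8 TPM in K823R and 50.8 TPM in WT. The carnitine octanoyltransferase gene Crot averaged 36.7 TPM in K823R and 40.5 TPM in WT, and the thioesterase gene Acot8 14.9 TPM in K823R and 18.2 TPM in WT. Of 19 tested genes of 2-hydroxy fatty acid and sphingoid base metabolism 10 were on the higher side. Fa2h, which makes the 2-hydroxy fatty acids of myelin, stood at 76.9 and 91.9 TPM in K823R, against 69.2 and 73.1 TPM in WT (log2 difference 0.24, SE 0.11). The ceramide synthase gene Cers2 averaged 126 TPM in K823R and 109 TPM in WT, the ceramidase gene Acer2 3.17 TPM in K823R and 5.16 TPM in WT, and the desaturase and hydroxylase gene Degs2 1.99 TPM in K823R and 2.76 TPM in WT. Fa2h and Cers2 are expressed in myelinating cells. The 10 markers of myelinating Schwann cells summed to 14486 and 17253 TPM in K823R, against 11735 and 14582 TPM in WT. Of these 10 markers 9 were higher in sign, against 57.4% of all genes tested, and none was at 0. For 5 of them K823R lay wholly above WT, against 19.4% of all genes tested. The part of myelinating cells in these values was not tested.

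Of 15 genes listed with the peroxins, the proteins that build peroxisomes, 9 had a positive sign and 6 a negative. Pex5l, named for its likeness to Pex5, is counted among the 15. Pex14 averaged 62.6 TPM in K823R and 55.8 TPM in WT. Pex11a averaged 9.22 TPM in K823R and 10.8 TPM in WT, and Pex11g 1.73 TPM in K823R and 2.51 TPM in WT. Of 6 genes that dispose of propionyl-CoA, a product of the oxidation of branched and odd-chain fatty acids, 5 were on the higher side. Pcca averaged 14.97 TPM in K823R and 13.2 TPM in WT, Pccb 57.2 TPM in K823R and 56.2 TPM in WT, Mcee 66.6 TPM in K823R and 62.4 TPM in WT, and Mmaa 10.4 TPM in K823R and 10.2 TPM in WT. Over all 8 lists 87 of 98 genes were tested, 57 (65.5%) were higher and 30 lower in sign, against 57.4% higher over all genes tested, and 0 were past the threshold in limma, with 1 at an unadjusted p below 0.05. The lowest adjusted p was 0.918. Groups did not overlap for 33.3% of the 87, against 34.0% of all genes tested, which is close to the background.

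**Figure D4:**
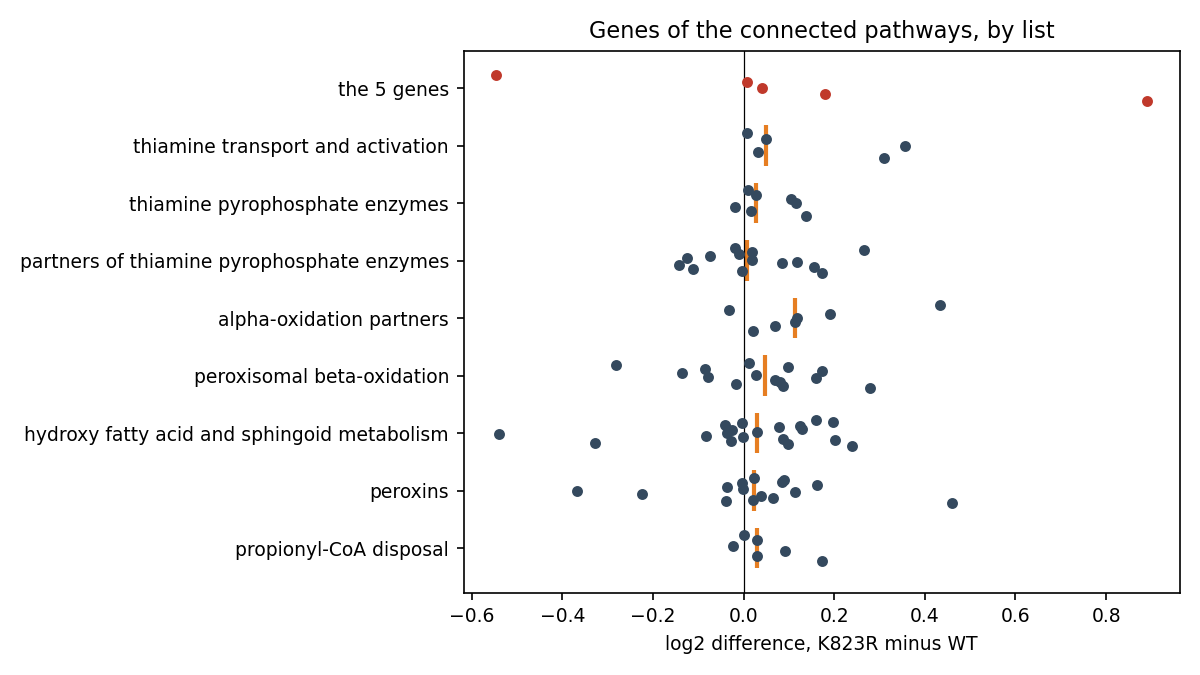
Log2 difference, K823R minus WT, of the 5 genes (red) and of each tested gene of the 8 lists (dark points), with an orange bar at each list's median. Ilvbl, which was chosen for its difference, lies at 0.89, outside the range of all 87 list genes, -0.54 to 0.46. The medians lie between 0.0080 and 0.11.

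Markers of other cell types were compared with Ilvbl library by library, because WT replicate 1 was far below the rest for glia of the central nervous system. The 12 oligodendrocyte and astrocyte markers summed to 279.8 and 332 TPM in K823R, against 29.5 and 229 TPM in WT. Of these, 10 were tested, and all 10 had both K823R libraries above both WT libraries, against 19.4% of all genes tested. Mog was at 0 in WT replicate 1 and at 9.59 TPM in WT replicate 2. Between those WT libraries Ilvbl differed by less than 1%, at 28.3 and 28.0 TPM. Without WT replicate 1 the Ilvbl difference was 0.90, and without WT replicate 2 it was 0.89. The 10 interferon response genes summed to 482 and 620.3 TPM in K823R, against 468 and 410.1 TPM in WT. All 10 were tested and higher in sign, and for 6 of them K823R lay wholly above WT, against 19.4% of all genes tested. The highest interferon sum was in K823R replicate 2, where Ilvbl was the lower of the K823R values. Without that library the Ilvbl difference was 0.97. The macrophage markers summed to 210.5 and 296 TPM in K823R, against 130.5 and 210.6 TPM in WT. Of these 10 markers 9 were higher in sign, and for 5 K823R lay wholly above WT. The fibroblast and meningeal markers summed to 2936 and 928 TPM in K823R, against 355 and 1099.8 TPM in WT. All 9 tested were higher in sign, and for 3 K823R lay wholly above WT. The highest fibroblast and meningeal sum was in K823R replicate 1, where Ptgds alone stood at 2374 TPM. Dcn and Lum were highest in WT replicate 2, Col1a1 and Col1a2 in K823R replicate 2, and the other markers of that list in K823R replicate 1. Without K823R replicate 1 the Ilvbl difference was 0.81. The 12 sensory neuron markers summed to 14279 and 13880.4 TPM in K823R, against 14800.4 and 12778 TPM in WT. The 10 satellite glia markers summed to 11222 and 12503 TPM in K823R, against 11287 and 11238 TPM in WT. Apoe made up most of these satellite glia sums, at 10044 and 11139 TPM in K823R, against 10218.5 and 9905 TPM in WT. Higher in sign were 8 of the 12 sensory neuron markers and 4 of the 10 satellite glia markers, against 57.4% of all genes tested. The part of these cell types and of the interferon response in the Ilvbl difference was not tested.

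The 8 pituitary markers summed to 23.8 and 20.05 TPM in K823R, against 2.57 and 4.98 TPM in WT, with most of the K823R sums in Gh and Prl, and 3 of the 8 passed the filter. Growth hormone (Gh) stood at 17.1 and 12.0 TPM in K823R, against 0.25 and 1.15 TPM in WT, and prolactin (Prl) at 3.05 and 3.56 TPM in K823R, against 0 and 0.11 TPM in WT. Both K823R libraries were thus above both WT libraries for these hormones, as for Ilvbl. That held for 2 of the 3 tested pituitary markers, against 19.4% of all genes tested. Gh and Prl passed the filter through their K823R values, since both were scarce in WT. The other markers were scarce and did not share one pattern. Pomc stood at 1.99 and 3.51 TPM in K823R, against 1.44 and 2.69 TPM in WT, and Tshb at 0.90 and 0.52 TPM in K823R, against 0.85 and 0.52 TPM in WT, so the groups of both genes overlapped. Cga, the subunit shared by glycoprotein hormones, stood at 0.76 and 0.36 TPM in K823R, against 0 and 0.33 TPM in WT. Of the transcription factors, Pitx1 was at 0 in both K823R libraries, against 0.03 and 0.18 TPM in WT, and Pou1f1 was at 0 in 3 libraries and at 0.07 TPM in K823R replicate 2. The hormone subunit gene Lhb was at 0 in all 4 libraries. The part of pituitary RNA in the Ilvbl difference was not tested.

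**Figure D5:**
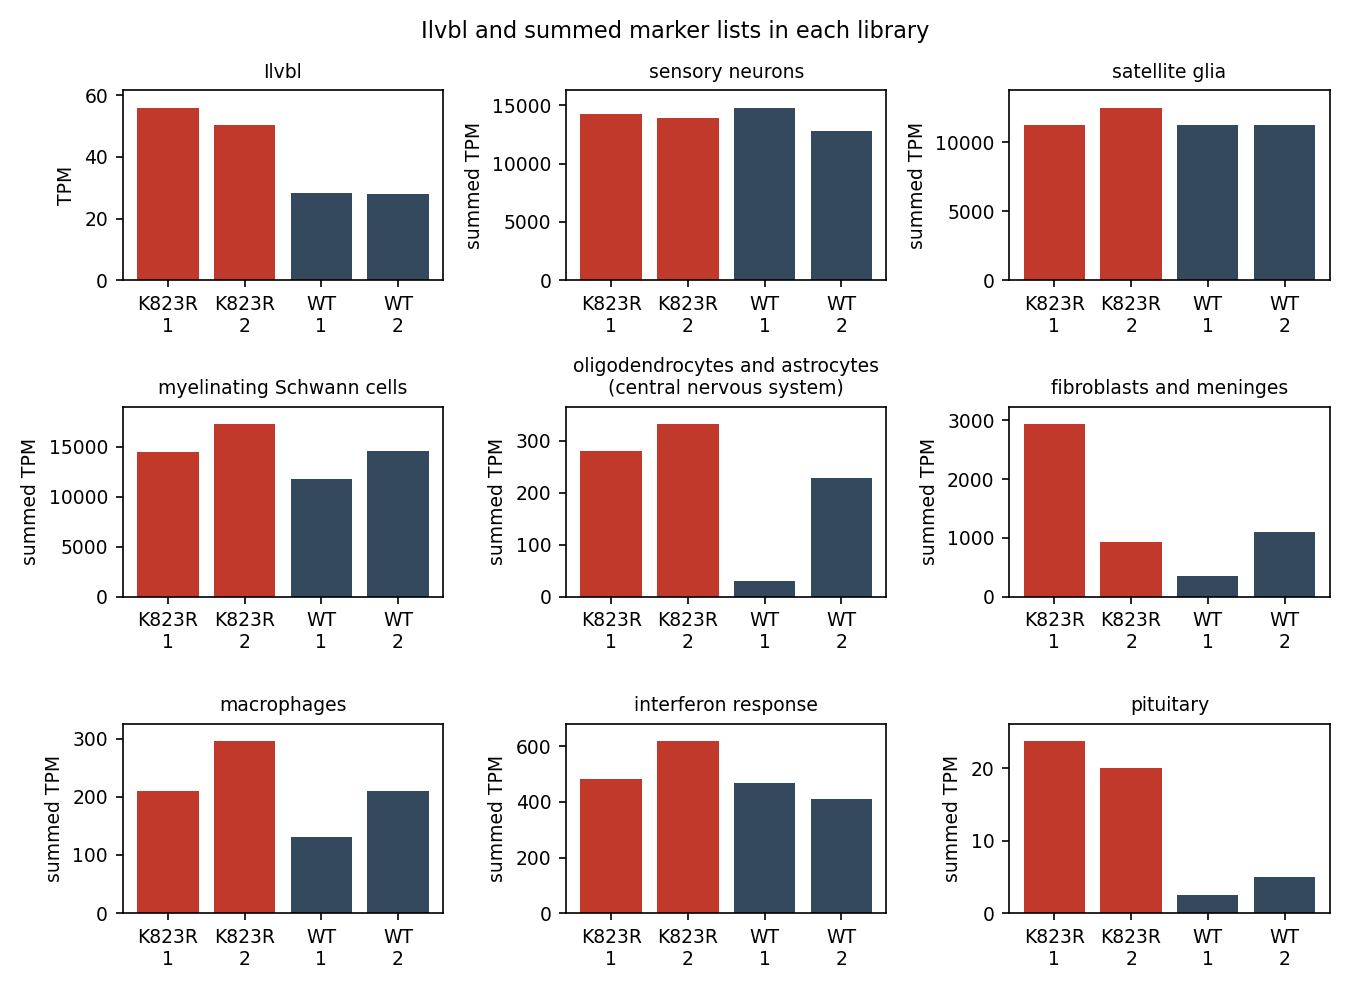
Ilvbl in TPM and the summed TPM of 8 marker lists in each library, with linear axes that start at 0 and K823R libraries in red left of WT libraries in dark blue. Ilvbl is nearly equal in the WT libraries (28.3 and 28.0 TPM) while the central glia sum is 29.5 and 229 TPM there, and the pituitary sum is high in both K823R libraries.

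The genes with levels most like those of Ilvbl were found by the distance between log2(TPM + 1) values centred on each gene's mean over the 4 libraries. The 5 nearest genes with standard symbols were Spaca6, named for the sperm acrosome, the potassium channel subunit gene Kcne3, the orphan receptor gene Gpr62, the peptide gene Adm and the receptor gene Notch3. All 5 were much scarcer than Ilvbl, and the scale understates the change of such genes. Their ratios of means ran from 2.025 for Spaca6 to 3.255 for Adm, against 1.887 for Ilvbl. Kcne3 and Adm passed the filter through their K823R values, since their WT means are under 1 TPM. Spaca6 stood at 4.98 and 4.60 TPM in K823R, against 2.54 and 2.19 TPM in WT. Kcne3 averaged 2.19 TPM in K823R and 0.81 TPM in WT, Gpr62 3.28 TPM in K823R and 1.58 TPM in WT, Adm 2.23 TPM in K823R and 0.685 TPM in WT, and Notch3 5.18 TPM in K823R and 2.22 TPM in WT. Their Pearson's r with Ilvbl ran from 0.98 to 1.00 over 4 libraries that fall into the same 2 groups, and 454 of 15389 genes had an r of at least 0.95. A likeness of this size is therefore a description only.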

How the data were processed

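The data are poly(A)-selected RNA libraries of mouse trigeminal ganglion, copied with random hexamers and sequenced as paired reads on Illumina instruments, per the labels' protocols. Tools listed in the submitters' processing notes are edgeR, RSEM, HISAT2 and fastp 0.19.5, with build GRCm38.p6 and no roles; strand handling and annotation release: not given in the sources used here. Values deposited by the authors are TPM for 4 libraries, and 2 further columns equal the group means and were not used. Each TPM column sums to 1000000 or 1000001, so read depth is unknown and no counting interval is given. If RSEM made the values, reads matching several genes were divided by estimation.

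The 5 genes and the lists were chosen with earlier results of these data known. Differences are K823R minus WT of log2(TPM + 1) for genes averaging 1 TPM or more, tested with limma 3.58.1 (R 4.3.3, variance trend, 2.67 prior and 2 residual degrees of freedom, two-sided, Benjamini-Hochberg adjusted over 15390 genes, threshold 0.05). At 10 TPM or more the median SE was 0.102. The test was checked on simulated data with spreads shuffled among genes. The check required few false calls and recovery of large changes only, not of changes as small as those reported here. Named genes are the 5 genes, up to 4 per list with the smallest p, tested genes within 250 kb of Ilvbl and the 5 nearest in level; some genes in the list counts have no values reported here. Positions are from GENCODE M21 on GRCm38 (55141 of 56035 identifiers matched), promoters from RefSeq, and copies were searched with BLAST 2.17.0. Alternatives were the pseudocount, the filter, 2 rescalings, a replicate block and leaving out each library. A permutation of 2 against 2 libraries is too small for single genes and was not used.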

Additional observations from a re-analysis of the deposited data

How the results depend on the processing

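The Ilvbl difference kept its direction under all 10 alternatives, at 0.86 to 0.91 under other settings and 0.81 to 0.97 with a library left out. Those of Hacl1 (0.075 to 0.28), Phyh (0.015 to 0.068) and Slc19a3 (-0.90 to -0.33) kept theirs too, with no call by limma. The groups of Ilvbl, which was chosen for its difference, and of Hacl1, Phyh and Slc19a3 did not overlap. Leaving out a library therefore could not change these directions, and the replicate block cannot change any difference. Slc19a3 had no value with a mean of at least 5 TPM required. Its difference was -0.90 with a pseudocount of 0.1 TPM, -0.76 without WT replicate 1 and -0.33 without WT replicate 2. The Slc19a2 difference turned to -0.013 with median-of-ratios rescaling and -0.031 with quantile normalization, and lay between -0.072 and 0.086 with a library left out. The cause was not tested.

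The count of genes past the threshold was 1 as reported, 0 with no filter, 2 with a mean of at least 5 TPM, 0 with the replicate block and 0 with any library left out; with libraries left out fewer samples enter the fit. The count among the 8 lists was 0 throughout. Of 29 named list genes 6 changed sign under an alternative. With a library left out, Bckdha ran from -0.032 to 0.085, Ogdhl from -0.013 to 0.22, Pccb from -0.11 to 0.17, Mmaa from -0.032 to 0.092, Mcee from -0.011 to 0.19 and Thtpa from -0.010 to 0.11. Mmaa was -0.0076 with quantile normalization. The median of the transport and activation list was 0.13 without WT replicate 1 and 0.14 without WT replicate 2, and that of the alpha-oxidation partners 0.16 and 0.043.

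The replicate numbers do not pair the samples by the labels, and same-numbered libraries' deviations correlated at 0.05 across genes. With the replicate block the Ilvbl difference was 0.89, and it could not be otherwise. Each replicate number holds a library of each genotype, so the block leaves every difference unchanged. Depth is unknown, so what counting error adds to scarce genes such as Slc19a3 is unknown too.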
